A study of Mus musculus with 6 samples.

Results

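The genes described here are the hair keratins and keratin-associated proteins (KAP, gene names starting with Krtap), the building blocks of the hair and of the sheath that guides it. They were taken by symbol (Krt25 to Krt28, Krt31 to Krt36, Krt71 to Krt75, Krt81 to Krt86 and numbered Krtap genes), and 52 of the 71 symbols that matched had at least 10 estimated read counts summed over all libraries. These 52 members, 20 keratin genes and 32 KAP genes, stood among 18422 genes in the table. At the edge of the rule, Krtap14 entered with 11 counts and Krtap19-5 with 12, while Krtap28-13 stayed out with 9. RNA was sequenced from whole ear skin of mice at postnatal day 21, in 3 libraries of mice that lack Vegfr2 in endothelial cells (genotype ecko) and 3 libraries of littermates (genotype Control). All mice of both groups had received tamoxifen, the drug that switches on the deletion. The series gives an earlier and a later postnatal tamoxifen schedule, and neither the schedule of these mice nor the promoter that drives the deletion is given in the sources used here. Totals were 17255416 to 18054696 estimated counts per library. The deleted gene, named Kdr by its official symbol, had 475, 511 and 595 counts in the controls and 58, 37 and 42 in ecko, so each library followed its label.

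Hair grows in cycles. In the growth phase, matrix cells at the base of the follicle multiply and turn into the layers of the hair: cortex and cuticle, which make the type I and type II hair keratins and embed them in KAP proteins, and the inner root sheath, which makes its own set of keratins. In the resting phase the matrix is gone and this program is silent, while a finished club hair stays anchored in the skin. KAP families are named by composition: high sulfur and ultra-high sulfur families are rich in cysteine, which cross-links the keratin filaments, and high glycine-tyrosine families are rich in the amino acids of that name. The members lie in a few clusters, with 26 on chromosome 11, 9 on chromosome 15, 16 on chromosome 16 and 1 on chromosome 10. The type I keratin genes lay on chromosome 11 with most sulfur-rich KAP genes, the type II keratin genes on chromosome 15, and the glycine-tyrosine genes on chromosome 16.

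The members were weakly transcribed in this tissue. They made up 0.00826% to 0.0130% of all counts in a library, and 43 of the 52 had a mean below 1 CPM (counts scaled to the same library total). Of the 52, 16 were counted deeply enough to enter the test across all genes, and 36 were not. Between genotypes, 1 member rose in ecko skin (Krt84) and 1 fell (Krtap3-2), and the other 14 tested did not pass (adjusted p from 0.436 upward by edgeR's quasi-likelihood test). Of all 14866 genes that entered it, 0.686% were called higher and 1.08% lower, or 1.76% together. The genotypes did not overlap for the same 2 of the 16 tested members, against 21.0% of all genes tested, and they overlapped for all 36 members not tested. The remaining members varied mainly between single libraries within each genotype. Control 1 and ecko 3 were low, and controls 2 and 3 and ecko 1 were high, so the libraries stood apart in a way that the genotype label did not follow. Results are therefore given per library, and with and without control 1.

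Krt84 encodes a type II hair keratin, best known from the filiform papillae of the tongue rather than from the hair cortex. It lies on chromosome 15 from 101525026 to 101532820 on the minus strand (GRCm38). Krt84 had 498, 258 and 261 counts in controls 1 to 3 and 927, 738 and 992 counts in ecko 1 to 3. Every ecko library lay above every control, and control 1 was the highest control. The mean level of Krt84 in ecko skin, 50.0 ± 7.98 CPM, was 2.58 times the 19.4 ± 8.09 CPM of controls (SD, n = 3 per genotype). Its log2 fold change was 1.37 (SE 0.23, edgeR quasi-likelihood adjusted p = 0.0220), with all 3 ecko libraries on the high side. Without control 1 the log2 fold change of Krt84 was 1.77 (SE 0.14, edgeR adjusted p = 0.00121). Control 1 was the control nearest to ecko, so leaving it out had to widen the difference. The call was lost when control 2 (edgeR adjusted p = 0.0703), ecko 1 (0.0991), ecko 2 (0.0549) or ecko 3 (0.0931) was left out, each time with a log2 fold change still above 1.

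Krtap3-2 encodes a high sulfur KAP of the hair cortex. It is a single-exon gene on chromosome 11, from 99555823 to 99556853 on the minus strand, between Krtap3-3 and Krtap3-1. Krtap3-2 had 459, 616 and 597 counts in controls 1 to 3 and 352, 355 and 376 counts in ecko 1 to 3. The ecko libraries lay close together and below all controls, and control 1 was the lowest control. The mean level of Krtap3-2 in ecko skin, 20.4 ± 0.690 CPM, was 0.64 of the 31.8 ± 4.63 CPM of controls (SD, n = 3 per genotype). Its log2 fold change was -0.64 (SE 0.11, edgeR adjusted p = 0.0213), and -0.76 (SE 0.08, edgeR adjusted p = 0.00351) without control 1. Here too control 1 was the control nearest to ecko, so leaving it out had to widen the difference. The call was lost without control 2 (edgeR adjusted p = 0.0690), ecko 1 (0.0900), ecko 2 (0.102) or ecko 3 (0.0689), with log2 fold changes between -0.67 and -0.57.

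**Figure D1:**
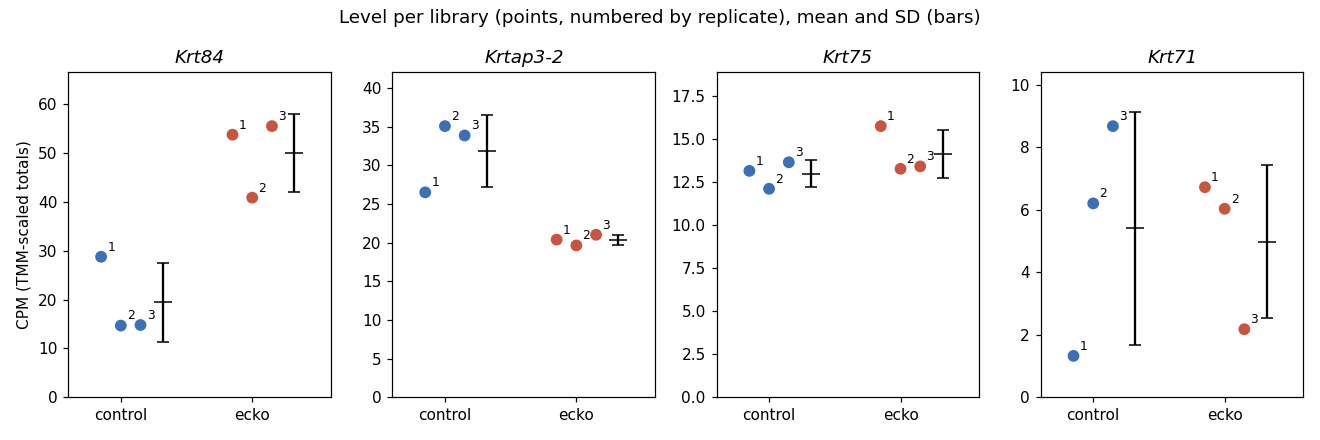
Level in CPM (y axis, starting at 0) of Krt84, Krtap3-2, Krt75 and Krt71 in the 3 control (blue) and 3 ecko (red) libraries, 1 point per library numbered by replicate, with the mean and SD of each group in black. The ecko points of Krt84 lie above all control points and those of Krtap3-2 below them, Krt75 is level, and Krt71 is spread from 1.33 to 8.68 CPM within the controls.

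Reads of Krtap3-2 could not be fully separated from those of its neighbour Krtap3-3. The transcripts of both genes shared an identical run of 333 bases, and 28.9% of all 50-base words of Krtap3-2 occurred in Krtap3-3. The estimates of either gene were not whole numbers, yet their sums were whole within 0.02 counts in 6 of 6 libraries, at 490, 653 and 620 in controls and 391, 378 and 395 in ecko. Krtap3-3 alone had 31, 37 and 23 counts in controls and 39, 23 and 19 in ecko, and did not pass (log2 fold change -0.18, SE 0.32, edgeR adjusted p = 0.840). Pooled, both genes had 21.9 ± 0.885 CPM in ecko skin against 33.5 ± 4.65 CPM in controls (SD, n = 3 per genotype), and the ecko values again lay below all controls. This lower pooled level does not depend on how reads were divided between the pair.

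Per kilobase of exon, Krtap3-2 had the highest mean level of the members, at 25.3 CPM per kilobase over the 6 libraries, followed by Krt84 at 13.2, Krt75 at 4.15, Krt71 at 2.37 and Krtap3-3 at 2.22. Other members named here lay lower on that scale, such as Krt27 at 1.76, Krt32 at 1.32 and Krt33a at 0.358 CPM per kilobase. Krtap3-1, the other neighbour of Krtap3-2, lay at 0.848 CPM per kilobase and had 3, 18 and 17 counts in controls and 9, 5 and 2 in ecko.

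The sequences before the start sites were searched for 2 short motifs. The 250 bases before the start of 4 members are printed 5′ to 3′ on the gene's own strand, from RefSeq on GRCm38.p6. They were chosen because Krtap3-2 and Krt84 passed the test, Krtap3-3 shares reads with Krtap3-2, and Krt34 stands for the cortex keratins. Capitals mark TATAAA, the core of the TATA box that places the start of transcription, and CTTTGAA or CTTTGAT, the core bound by the LEF and TCF factors of Wnt signalling, each searched on both strands. The windows are chr11:99556854-99557103 for Krtap3-2, chr11:99550864-99551113 for Krtap3-3, chr11:100041555-100041804 for the cortex keratin gene Krt34 and chr15:101532821-101533070 for Krt84, all on the minus strand.
Krtap3-2: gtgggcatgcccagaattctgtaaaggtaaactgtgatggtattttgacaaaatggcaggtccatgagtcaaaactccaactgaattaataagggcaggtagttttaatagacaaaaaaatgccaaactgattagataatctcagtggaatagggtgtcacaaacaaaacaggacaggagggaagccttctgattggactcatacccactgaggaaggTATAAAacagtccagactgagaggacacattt
Krtap3-3: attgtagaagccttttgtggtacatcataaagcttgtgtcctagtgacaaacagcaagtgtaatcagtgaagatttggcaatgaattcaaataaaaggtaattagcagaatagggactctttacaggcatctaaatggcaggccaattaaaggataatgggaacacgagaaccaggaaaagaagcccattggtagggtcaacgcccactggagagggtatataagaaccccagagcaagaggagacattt
Krt34: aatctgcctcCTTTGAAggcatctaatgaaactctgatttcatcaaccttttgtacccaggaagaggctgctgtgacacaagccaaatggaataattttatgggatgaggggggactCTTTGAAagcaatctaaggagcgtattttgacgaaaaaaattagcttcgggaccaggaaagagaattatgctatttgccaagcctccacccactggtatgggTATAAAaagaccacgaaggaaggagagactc
Krt84: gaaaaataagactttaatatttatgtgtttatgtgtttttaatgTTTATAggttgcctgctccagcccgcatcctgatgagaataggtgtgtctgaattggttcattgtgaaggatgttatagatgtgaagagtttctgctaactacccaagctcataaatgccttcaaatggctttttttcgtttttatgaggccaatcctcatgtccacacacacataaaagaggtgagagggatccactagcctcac

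A window from 250 bases before to 50 after the start was found for 44 of the 52 members and compared with all 32851 mouse windows of that table. TATAAA occurred in 37 of the 44 (84.1%) and in 13.6% of all windows, and the core CTTTGAA or CTTTGAT in 16 of the 44 (36.4%) and in 8.65% of all windows. Krtap3-2, Krtap3-3 and Krt34 are among these 16. For Krtap3-2 and Krtap3-3 the match does not lie within the 250 printed bases, so it is not marked above. A TATAAA on the gene strand starting 40 to 20 bases before the start site was present in 26 of the 44 (59.1%) and in 1.99% of all windows. Krtap3-2 and Krt34 had it, whereas Krt84, Krtap3-3, Krt75, Krt82 and Krt36 did not. Only these exact letters were searched. Close variants, such as tatataag in the printed window of Krtap3-3, were not counted, so a gene without a match may still have a TATA box. The clusters contain duplicated genes, so the windows are not independent of each other. A match of letters describes the sequence and not the binding of a factor.

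Most other keratins of the hair shaft differed between libraries of the same genotype. Without Krt84 and the cuticle gene Krt32, the remaining 10 shaft keratins summed to 28, 114 and 154 counts in controls 1 to 3 and to 97, 42 and 23 counts in ecko 1 to 3. Both genotypes thus held a library with few reads and a library with many. In CPM, controls 1 to 3 had sums of 1.62, 6.49 and 8.73 and ecko 1 to 3 had 5.62, 2.32 and 1.29, a 6.79-fold range over the libraries. Krt32 was left out after its values were seen, because control 1 was not low for it. With Krt32 kept, the range was 2.81-fold.

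Krt34, a type I keratin gene of the cortex, had 0, 15 and 20 counts in controls and 8, 4 and 3 in ecko, where a count of 0 allows up to 3. The type II cortex gene Krt83 had 1, 18 and 23 counts in controls and 9, 1 and 1 in ecko. For both, controls 2 and 3 were the highest libraries and control 1 lay among the lowest. Krt81, Krt83 and Krt86 encode close relatives that share reads: Krt86 and Krt81 held an identical run of 374 bases. Pooled, they had 7, 49.99 and 65 estimated counts in controls 1 to 3 against 31, 12 and 4 in ecko 1 to 3, so the library order did not depend on how reads were divided. Krt81, the only 1 of the 3 that was tested, had a log2 fold change of -1.17 (SE 0.73, edgeR adjusted p = 0.502), within the spread of the libraries.

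Krt33a, another cortex keratin gene, had 9, 19 and 21 counts in controls and 14, 9 and 6 in ecko (log2 fold change -0.76, SE 0.43, edgeR adjusted p = 0.436). Krt31 and Krt33b, type I cortex genes as well, ranged from 3 to 17 and from 1 to 20 counts over the libraries. Krt35, which is made early in the differentiating matrix and cortex, had 14 of its counts in ecko 1 and 0 to 4 in each other library. Krt36 had 4, 5 and 0 counts in controls and 7, 2 and 1 in ecko. The cuticle gene Krt82 had 3, 5 and 8 counts in controls and 6, 2 and 3 in ecko.

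Krt32, which encodes a type I keratin of the shaft cuticle, did not share the order of the cortex genes. It had 45, 41 and 23 counts in controls and 42, 49 and 41 in ecko, and control 1 was not low (log2 fold change 0.26, SE 0.25, edgeR adjusted p = 0.705). An antisense gene, Gm11571, overlaps its exons. The strand setting is not given, so its counts may include reads of the other strand.

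**Figure D2:**
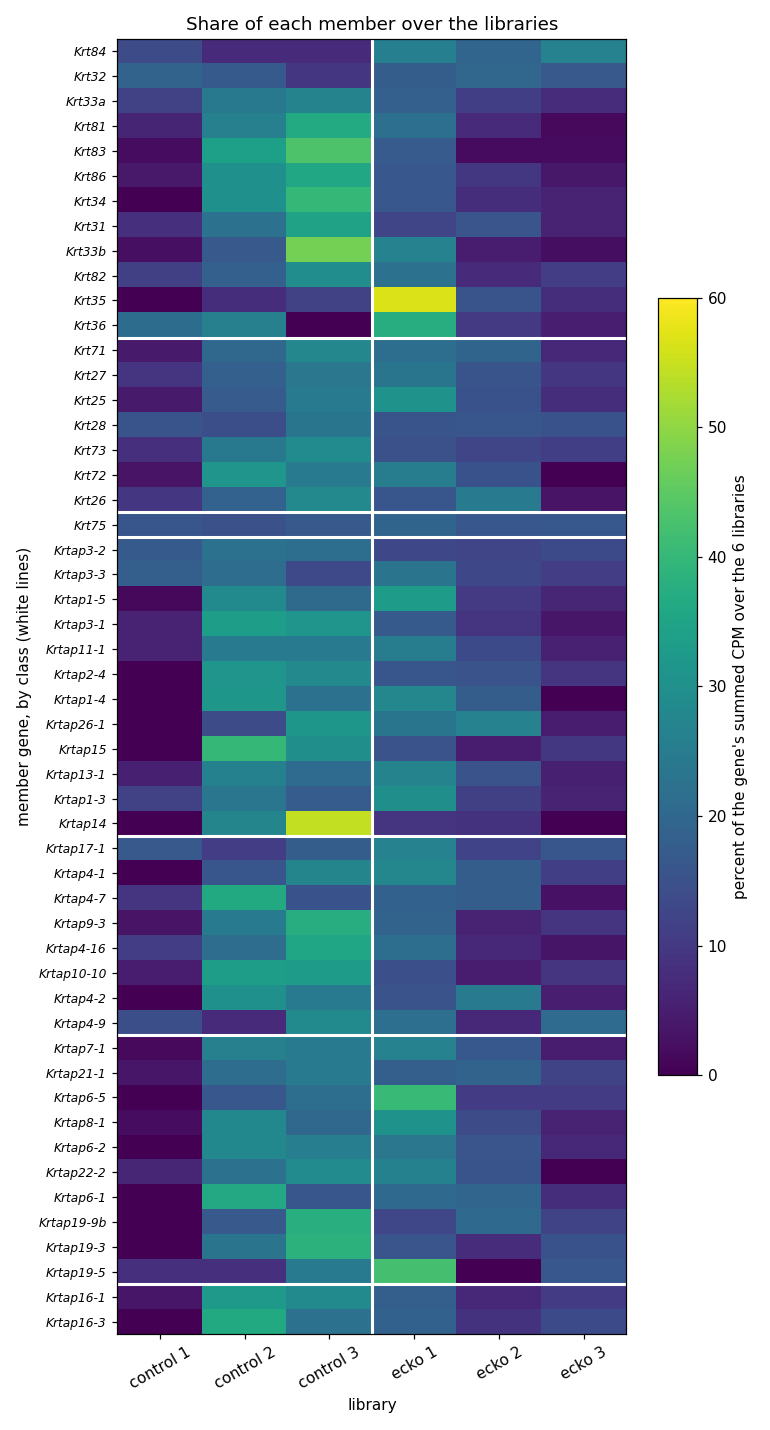
Share of each of the 52 members (rows, grouped by class between white lines and sorted by mean level within a class) that fell to each of the 6 libraries (columns), as a percent of the gene's summed CPM. Darker cells are smaller shares. Dark cells run down the columns of control 1 and ecko 3 through most classes. In control 1, 18 members have at least 0.5 of their median in the other libraries. Among these 18 are Krt36, Krt32, Krt28, Krt75, Krt84, Krtap3-2, Krtap3-3 and Krtap17-1.

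The inner root sheath keratins, whose products stiffen the tube around the growing hair, also had their lowest sums in control 1 and ecko 3. The 7 genes summed to 97, 261 and 360 counts in controls and to 305, 244 and 123 in ecko, or 5.60, 14.9 and 20.4 CPM against 17.7, 13.5 and 6.88 CPM. Krt71, made in all layers of the inner root sheath, had 23, 109 and 153 counts in controls and 116, 109 and 39 in ecko. Its level differed more within controls than between genotypes, with means of 5.40 ± 3.74 CPM for controls and 4.98 ± 2.45 CPM for ecko (SD, n = 3 per genotype). It did not pass (edgeR adjusted p = 0.946, log2 fold change -0.12, SE 0.54). Krt27 had 26, 53 and 69 counts in controls and 66, 46 and 28 in ecko, and Krt25 had 10, 41 and 59 against 72, 37 and 19. Neither passed, with log2 fold changes of -0.09 (SE 0.37) and 0.21 (SE 0.56). Krt28 had 29, 27 and 44 counts in controls and 29, 31 and 29 in ecko, so that control 1 was not low for this gene of the same class. The direction of the log2 fold change of Krt71, Krt27 and Krt25 turned when single libraries were left out.

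Krt75, the keratin gene of the companion layer between the inner and outer root sheath, was steady. It had 228, 213 and 241 counts in controls and 272, 240 and 240 in ecko, or 12.98 ± 0.787 CPM and 14.2 ± 1.39 CPM (SD, n = 3 per genotype). Its log2 fold change was 0.12 (SE 0.10, edgeR adjusted p = 0.646), and the groups overlapped. An antisense gene, Gm44460, overlaps the exons of Krt75, so the same limit as for Krt32 holds.

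The KAP genes, whose products fill the space between keratin filaments, had the same low libraries. Without Krtap3-2, the other 31 KAP genes summed to 70, 286 and 279 counts in controls and to 276, 159 and 101 in ecko, and 19 of the 31 had their lowest or tied lowest level in control 1. The 10 high glycine-tyrosine genes had 7, 88 and 93 counts in controls and 97, 58 and 31 in ecko, a 13.9-fold range in CPM. Krtap7-1 of that group had 1, 17 and 16 counts in controls and 17, 11 and 3 in ecko, Krtap6-2 had 0, 12 and 11 against 10, 7 and 3, and Krtap21-1 had 2, 12 and 14 against 10, 11 and 7. These 3 had log2 fold changes of -0.15, -0.21 and -0.02 and did not pass. Krtap6-5 had 0 counts in control 1 and its highest count, 22, in ecko 1.

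Among the high sulfur families, the 10 genes other than Krtap3-2 and Krtap3-3 summed to 9, 89 and 82 counts in controls and to 73, 40 and 17 in ecko. Krtap1-5 had 1, 22 and 16 counts in controls and 25, 8 and 5 in ecko, and its log2 fold change was -0.05 (SE 0.75, edgeR adjusted p = 0.986). Krtap11-1 had 2, 9 and 9 counts against 9, 5 and 2. In each of these, control 1 and ecko 3 were the lowest libraries. The ultra-high sulfur families were read even less. Without Krtap17-1 their 7 genes summed to 10, 47 and 55 counts in controls and to 39, 25 and 16 in ecko, of which Krtap4-1 had 0, 7 and 12 against 12, 8 and 5. Krtap17-1 itself had 12, 8 and 13 counts in controls and 19, 9 and 12 in ecko, with no drop in control 1 (log2 fold change 0.26, SE 0.39, edgeR adjusted p = 0.814). Krtap16-1 and Krtap16-3, placed in no family class here, had 1 count together in control 1 and 17 and 13 in controls 2 and 3. In ecko 1 to 3 they had 9, 4 and 6 counts, so ecko 2 and not ecko 3 was the lowest ecko library.

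**Figure D3:**
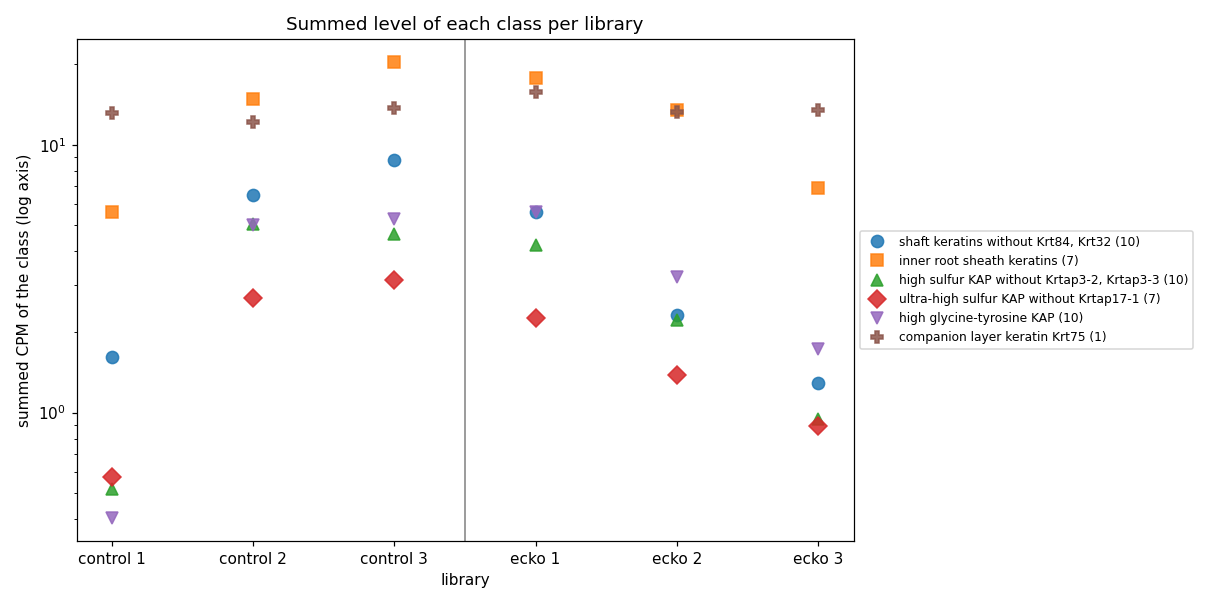
Summed CPM of 6 classes of members (y axis, log scale) in the 6 libraries (x axis), with the number of genes in brackets, leaving out Krt84 and Krt32 from the shaft keratins, Krtap3-2 and Krtap3-3 from the high sulfur class and Krtap17-1 from the ultra-high sulfur class. After that, the shaft keratins, the inner root sheath keratins and the 3 KAP classes have their lowest sums in control 1 and ecko 3. Krt75 stays between 12.1 and 15.8 CPM. The genes left out were chosen after their values were seen, because control 1 was not low for them. With all its genes, the shaft class has 33.0, 23.5 and 24.8 CPM in controls 1 to 3. The full high sulfur class has 28.8 CPM in control 1 and at most 26.9 CPM in ecko.

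Across all 52 members, 34 had a level in control 1 below 0.5 of their median in the other 5 libraries, and 15 had no read there, against 0 to 4 members at 0 in each other library. No member had its highest level in control 1, while 22 were highest in control 3, 15 in ecko 1 and 13 in control 2. Leaving out Krt84, Krtap3-2 and Krt75, the 49 others summed to 13.9, 39.95 and 46.3 CPM in controls and to 41.7, 27.3 and 16.1 CPM in ecko, so the groups overlapped. In counts, 45 of the 49 were higher in ecko 1 than in ecko 3 and 4 (Krt28, Krtap4-9, Krtap19-3 and Krtap19-9b) were equal. Read counts of Y-linked genes marked control 3 and ecko 3 as female and the other 4 as male, so the libraries with the highest and the second lowest sum came from female pups.

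The direction of the genotype difference over these weaker members depended on which library was left out. With all libraries, the ratio of ecko to control means of the 49 summed was 0.851. It was 0.658 without control 1 and 0.651 without ecko 1, but 1.06 without control 3 and 1.04 without ecko 3. Without control 1, 26 members were tested, since the filter then asked for fewer libraries. Of these, Krt84 and Krtap3-2 were again called, as were 1.07% of all genes. None of the 24 others passed (edgeR quasi-likelihood adjusted p from 0.141 upward), with 8 at an unadjusted p under 0.05, as were 14.2% of all genes in that fit. Of these 24, 20 had log2 fold changes below 0, with a median of -0.58, where 49.4% of all genes were below 0. Control 1 was singled out for being low in most members, and leaving it out raises the control mean of such members. The share of all genes is therefore not a like comparison. A gene could also pass that filter through its 2 control libraries alone, so these counts are a description only. The values furthest from 0 were those of Krt83 (-2.45, SE 0.67), Krt34 (-1.79, SE 0.48), Krt86 (-1.70, SE 0.51) and Krtap3-1 (-1.70, SE 0.51). None of these genes was tested in the fit with all libraries. In whole skin, fewer follicle cells of a kind and less RNA per cell cannot be told apart.

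**Figure D4:**
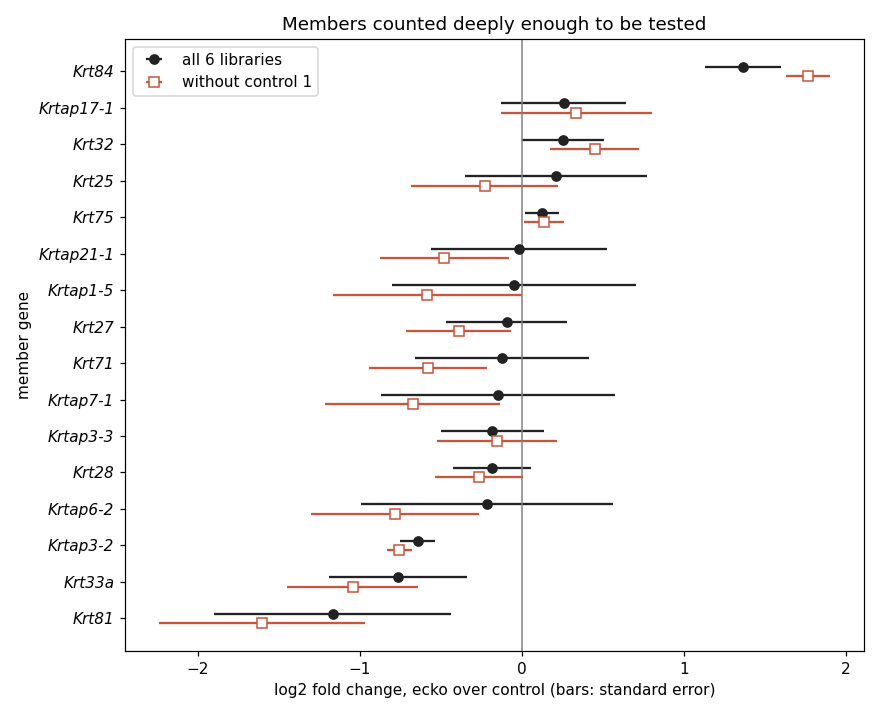
Log2 fold change of ecko over control (x axis) with its standard error for the 16 members tested (y axis), from all 6 libraries (black) and without control 1 (open red). Krt84 and Krtap3-2 lie clear of 0 in both fits, and most other members move toward lower values without control 1. For Krt84 and Krtap3-2, control 1 was the control nearest to ecko, so leaving it out had to widen the difference. It was low for most other members, so leaving it out had to lower their values.

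Other genes of the follicle were described beside the members, with the 3 genes of smallest p named for each list. As a background for the counts below, 15.4% of all genes tested had an unadjusted p under 0.05. Of the other hair shaft genes, 13 of 20 were tested and none passed with edgeR, with 2 at an unadjusted p under 0.05, 1 called by DESeq2 and 0 by limma-voom. The smallest p values of that list pointed both ways. Psors1c2 had 333, 283 and 301 counts in controls and 504, 549 and 343 in ecko (log2 fold change 0.59, SE 0.16, edgeR adjusted p = 0.125). S100a3, a cuticle calcium-binding protein gene, had 35, 42 and 72 counts in controls and 32, 27 and 22 in ecko (log2 fold change -0.89, SE 0.30, edgeR adjusted p = 0.196). For Mt4, a metallothionein gene, the value was -0.23 (SE 0.11). The transcription factor genes of that list were even over the libraries: Foxn1 had 208 to 288 counts, Hoxc13 had 70 to 96 and Lef1 had 72 to 90.

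Tchh, which encodes trichohyalin of the inner root sheath, had its lowest value in control 1, with 117, 195 and 229 counts in controls and 260, 207 and 176 in ecko, and did not pass. Of the 10 other inner root sheath genes none passed with edgeR or limma-voom, with 2 at an unadjusted p under 0.05 and 1 called by DESeq2. Their log2 fold changes included 0.38 for Krt6a, -0.15 for Cux1 and 0.29 for Lipk. Krt6a is a keratin gene of the companion layer and outer root sheath, so its value does not describe the inner root sheath. Shh, the signal of the growing matrix, was at 0 or 1 count in every library. Of 16 tested growth-phase signals none passed with edgeR, DESeq2 or limma-voom, and 2 had an unadjusted p under 0.05. Values were 0.47 for Fgf7, 0.15 for Axin2 and 0.14 for Fst, and the summed level of the list varied by 1.17-fold over the libraries.

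Of 16 follicle stem cell genes, 14 dermal papilla genes and 12 cell cycle genes none passed with edgeR, DESeq2 or limma-voom, with 3, 2 and 1 at an unadjusted p under 0.05. Their summed levels varied 1.11-fold, 1.40-fold and 1.25-fold between the lowest and the highest library. Log2 fold changes of the stem cell genes were -0.21 for Npnt, -0.27 for Cd34 and -0.27 for Bmp6. Among dermal papilla genes they were -0.53 for Prom1, -0.47 for Crabp1 and 0.38 for Hhip, and among cell cycle genes 0.30 for Ccnb1, 0.21 for Mki67 and 0.21 for Top2a. All 13 pigment cell genes tested lay above 0 (median 0.28 on the log2 scale), and none passed with edgeR or limma-voom, with 6 at an unadjusted p under 0.05 and 2 called by DESeq2. Those of smallest p had log2 fold changes of 0.44 (Tyrp1), 0.39 (Pmel) and 0.21 (Mitf). The pigment genes summed to 196 to 213 CPM in controls and 227 to 275 CPM in ecko. Their part in the members' values was not tested.

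Markers of endothelium, adipocytes and skeletal muscle were lower as lists in ecko skin. Of 9 endothelial genes 9 fell, among them Cdh5 (log2 fold change -0.93), Tie1 (-1.07) and Cd93 (-0.93). Of 9 adipocyte genes 5 fell, among them Cfd (-1.47), Car3 (-0.63) and Adipoq (-0.63), and the list summed to 690 to 794 CPM in controls and 418 to 518 CPM in ecko. Of 12 skeletal muscle genes 2 fell, Tcap (-0.78) and Ryr1 (-0.54), while Myh4 (-0.74) did not pass. Of the 12, 11 lay below 0 and 10 had an unadjusted p under 0.05. The muscle list summed to 6945 to 10310 CPM in controls and 5897 to 6611 CPM in ecko. In the other lists few genes or none passed. Of 10 interfollicular keratinocyte genes, Krt1 rose (log2 fold change 0.76, SE 0.15, edgeR adjusted p = 0.0376), and Ivl (0.14) and Lor (-0.19) did not pass. Of 11 sebaceous gland genes, Awat1, a wax synthase gene, rose (0.39, SE 0.07), and Dgat2 (-0.29) and Elovl3 (0.39) did not pass. In that list 5 genes had an unadjusted p under 0.05. Of 9 fibroblast genes none passed with any of the 3 tools, with 0 at an unadjusted p under 0.05, and the values of Col1a1, Pdgfra and Col1a2 were -0.22, 0.19 and -0.18. Of 9 tested cartilage genes none passed with any of the 3 tools, with 3 at an unadjusted p under 0.05, and Col9a1, Snorc and Acan had values of -0.32, -0.46 and -0.30. The part of these cell types in the values of Krt84 and Krtap3-2 was not tested.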

How the data were processed

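Poly(A) RNA of ear skin was sequenced from 6 libraries, per the labels' protocols. The table deposited by the authors gives an expected count for each gene in each library with no scaling, and 10.5% of the values were not whole. RSEM 1.3.1, Bowtie2 2.4.5 and HISAT2 2.2.1 are listed with no roles, and GRCm38.p6 as the genome, per the submitters' processing notes. The strand setting and annotation release are not given in the sources used here. Exons of Krt32, Krt75, Krtap10-10 and Krtap15 overlap those of another gene, so their values are uncertain.

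Expected counts were rounded. Genes were filtered with filterByExpr (minimum count 10), which kept 14866, and libraries were scaled by TMM. The edgeR 4.0.16 quasi-likelihood test (R 4.3.3) compared genotypes over all 6 libraries, with Benjamini-Hochberg adjustment over all genes tested and a threshold of 0.05. CPM used TMM-scaled totals, and standard errors were the log2 fold change divided by the square root of F. The test was checked on simulated data, with changes planted only in well-counted genes and the same spread set for every gene. That check does not cover weakly counted members or a library that stands apart. Alternatives were RLE factors, DESeq2 1.42.0, limma-voom (limma 3.58.1), other filters, a sex term, the replicate number as a block and each library left out. The labels name no animals, so p-values measure the spread between these samples. Libraries of the same genotype varied 4.89 to 14.8 times as much as counting error gives, so none was a duplicate.

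The members and lists were chosen with earlier results of these data known. By rule, members were named if among the 3 highest of a class, past the threshold or among the 5 smallest p, and list genes if among the 3 smallest p of their list. Other genes were named, and sums that leave out single genes were formed, after their values were seen. A classing of KAP genes by protein composition was planned, but protein sequences were not used here, so KAP genes counted as 1 class for the naming rule and the families follow general knowledge. Exon lengths and coordinates came from GENCODE M21 (GRCm38).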

Additional observations from a re-analysis of the deposited data

How the results depend on the processing

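Both calls among the members, Krt84 higher and Krtap3-2 lower, were kept with RLE factors, no low-count filter, a filter of 1 CPM in 3 libraries, a sex term, DESeq2 and limma-voom. With the replicate number as a block, they were kept too, with log2 fold changes of 1.41 (edgeR adjusted p = 0.0124) and -0.64 (edgeR adjusted p = 0.0339). With single libraries left out, the count of members called ranged from 0 to 1 in each direction, and over all genes from 22 to 165 higher and from 34 to 242 lower. All genes called higher, 102, became 63 with the replicate block and 195 with DESeq2. Whether the replicate numbers pair the libraries cannot be settled from these values. Deviations of same-numbered libraries correlated at 0.0593, 0.0244 and 0.186 across genes, and those of differently numbered libraries at -0.124 to 0.0768. Not every library correlated best with its own number. The highest value was that of control 3 with ecko 3, which were both female.

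The sign of uncalled members turned in some settings. With single libraries left out the log2 fold change ranged from -0.58 to 0.40 for Krt71, from -0.45 to 0.22 for Krt27, from -0.42 to 0.72 for Krt25, from -0.57 to 0.0216 for Krtap3-3 and from -1.02 to 0.56 for Krtap1-5. With limma-voom it was 0.0863 for Krt71 and 0.33 for Krtap1-5. The summed CPM of all members in ecko was 1.16 times that of controls, and 1.06 to 1.23 times with single libraries left out. The sums overlapped, at 82.3, 101.8 and 108.6 CPM in controls and 131.6, 101.1 and 106 CPM in ecko. Krt84 alone went from a mean of 19.4 to 50.0 CPM, while the sum went from 97.6 to 112.9 CPM. The ecko mean lay below the control mean for 40 members and above it for 12. The ratio for the 49 members without Krt84, Krtap3-2 and Krt75, 0.851, ranged from 0.651 to 1.06 with single libraries left out, a range added after seeing the data. The filter on low counts left out 36 of the 52 members. With no filter all 52 were tested, and Krt84 and Krtap3-2 were again the 2 called, with none of the others at an unadjusted p under 0.05.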
